A study of Homo sapiens with 12 samples.

Results

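The miR-548 family consists of primate microRNAs (miRNAs) whose hairpins derive from Made1 elements, short miniature inverted-repeat DNA transposons that fold back on themselves when transcribed. A miRNA hairpin is cut from its primary transcript by the Microprocessor complex, exported and diced, and one strand of the duplex (the 5p or 3p arm) is loaded into an Argonaute protein, where the seed selects the mRNAs to be bound. Because the source element is repeated across the genome, family members resemble each other and resemble many sites that are not annotated as miRNAs, so a short read can be difficult to assign to one member.

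Members were all mature miRNAs whose name begins with hsa-miR-548 in the deposited tables. They numbered 81 of 2652 mature miRNAs, with 28 named as 3p arms, 28 as 5p arms and 25 without an arm. The tables come from SLAMseq of Huh7 cells, a human hepatocellular carcinoma line. In SLAMseq, 4-thiouridine (4SU) enters newly made RNA, iodoacetamide alkylates it, and reverse transcription then reads C in place of T at labelled positions (a T>C conversion). *Control* cells received DMSO without 4SU, *DMSO* cells received DMSO with 500 μM 4SU, and *PlaB* cells received Pladienolide B, an inhibitor of the splicing factor SF3B1, with 500 μM 4SU. The treatment lasted 4 h and each condition had 4 libraries. The paper describes independent experiments that each held all conditions. The main tests below did not pair libraries by replicate number, and the calls that changed when the number was used as a block are given. The labels give 500 μM for Pladienolide B, whereas the study's methods state a far lower concentration for it and 500 μM for 4SU. All libraries came from one cell line, and the p-values below measure the spread between these 12 libraries.

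Library totals were 1522210 to 3880241 reads, and the labels state that *DMSO* libraries 1 and 2 were re-amplified and combined from several sequencing runs. The labelled cell type was checked against hepatocyte miRNAs, which summed to 117601 to 166592 CPM (reads scaled to a common library total) across the libraries. The blood markers miR-142-5p, miR-142-3p and miR-223-3p summed to at most 4.04 CPM, and the muscle markers miR-1-3p, miR-133a-3p and miR-206 to at most 10.2 CPM, with miR-206 at 0 in every library. The neuronal markers miR-124-3p and miR-9-5p summed to 1.97 to 54.9 CPM. The endothelial markers miR-126-3p and miR-126-5p were detected at a summed 412 to 655 CPM.

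Mature sequences were available from RefSeq (GRCh38.p14) for 55 of the 81 members, at 64 loci, and these members held 84.7% of the reads of the family. The sequences below belong to the matched members that were among the 10 most abundant or that carried at least 5 T>C conversions, with the seed (bases 2 to 8) in capitals.
miR-548x-3p: uAAAAACUgcaauuacuuuc
miR-548k: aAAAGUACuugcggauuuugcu
miR-548o-3p: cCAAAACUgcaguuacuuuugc
miR-548ay-3p: cAAAACCGcgauuacucuugca
miR-548ar-3p: uAAAACUGcaguuauuuuugc
miR-548y: aAAAGUAAucacuguuuuugcc
miR-548s: aUGGCCAAaacugcaguuauuuu
miR-548l: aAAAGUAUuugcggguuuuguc

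The 55 sequences carried 29 different seeds. The seed AAAGUAA was the most common, with 11 members, but these held only 9.46% of the reads of matched members, and miR-548y was the most read of them. The seed AAAAACU was shared by 7 members that together held 32.9% of these reads, nearly all from miR-548x-3p. Uridine made up a median 36.4% of the bases of a member against 25% in the other 2308 matched miRNAs, so a member read offered more positions at which a conversion could be seen (7.23 covered T positions per read in the family and 6.72 over all miRNAs).

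Of the 64 loci, 44 lay within a gene on the same strand in GENCODE 44 but not wholly within an exon, and are called intronic here. Of these, 38 were in a protein-coding gene. A further 9 lay antisense to a gene, 11 lay wholly within no annotated gene and 0 lay wholly within an exon of a same-strand gene. Partial overlap with an exon was not counted. miR-548k (chr11:70283986-70284007, plus strand) is in an intron of PPFIA1, which encodes a liprin scaffold protein. miR-548ar-3p (chr13:114244541-114244561, plus strand) is in an intron of CDC16, a subunit of the anaphase-promoting complex, and miR-548s (chr2:11767495-11767517, plus strand) is in an intron of LPIN1, a phosphatidate phosphatase. miR-548ay-3p (chr3:32506305-32506326, minus strand) is in no annotated gene. miR-548x-3p is encoded at chr21:18686100-18686119, in an intron of the long non-coding RNA MIR548XHG, and at chr13:65966352-65966371, both on the minus strand. miR-548o-3p is encoded at chr20:38516607-38516628, in an intron of RALGAPB, and at chr7:102405748-102405769, antisense to PRKRIP1.

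Repetition was a common property of the sequences. Of the 55 matched members, 27 (49.1%) shared a run of at least 16 bases with another mature miRNA, compared with 6.24% of the other matched miRNAs. An exact copy of the mature sequence was present at more than 1 site of the 24 main chromosomes for 32 members, against 15.1% of the other miRNAs, and miR-548x-5p matched 550 sites. Sites equal to the mature sequence with a single T changed to C, which a read with that one conversion matches exactly, existed for 33 members and for 9.71% of the other miRNAs. miR-548k and miR-548ay-3p each had 1 exact site and 0 sites that differ by a single T-to-C change, whereas miR-548x-3p had 3 exact sites and 15 such near-copies. In miR-548ar-3p, the change U15C (counted from its 5′ end) gives 20 bases of miR-548av-3p. In miR-548x-3p, U1C gives 20 bases of miR-548ae-3p.

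Reads from the family were found in every library but were spread unevenly over its members. Of 81 members, 57 had at least 1 read in any library, 28 had reads in all 12 and 24 had none. A *Control* library detected 37 to 40 members, a *DMSO* library 40 to 46 and a *PlaB* library 39 to 41. The 2 deepest libraries, both *DMSO*, detected the most members. When every library was thinned to the smallest total, the expected numbers were 36.0 to 39.6, 39.2 to 42.6 and 39.0 to 40.6, respectively.

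The summed level of the family in the *Control* libraries was 835, 903, 916 and 1116 CPM. It was 904, 1074, 1371 and 1169 CPM in *DMSO* and 989, 1294, 1333 and 1230 CPM in *PlaB*. The means were 942 ± 121, 1130 ± 195 and 1212 ± 154 CPM (SD, n = 4), and the ranges of all conditions overlapped. In the 8 libraries that do not stand apart in multi-mapping (described below), the means were 975 CPM in *Control* (n = 2), 1270 CPM in *DMSO* (n = 2) and 1212 CPM in *PlaB* (n = 4). The order of *DMSO* and *PlaB* then turned, and their ranges still overlapped. The *Control* values (835 and 1116 CPM) and the *DMSO* values (1371 and 1169 CPM) no longer overlapped, with only 2 libraries in each. The family thus accounted for 0.0835% to 0.137% of the reads of a library.

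The distribution within the family was steep: 39 members had a mean above 1 CPM, 15 above 10 CPM and 3 above 100 CPM. miR-548x-3p, miR-548k and miR-548o-3p together held 51.9% of family reads, and the first 10 members by reads held 82.5%. Only miR-548x-3p and miR-548k exceeded 100 CPM in all 12 libraries.

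**Figure D1:**
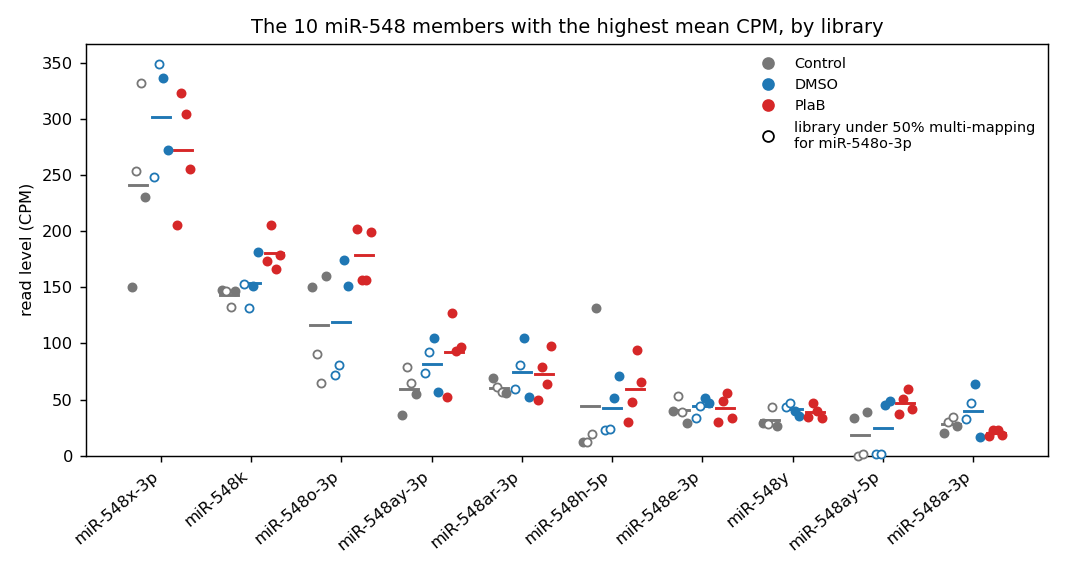
Read level (CPM, linear axis) of the 10 members with the highest mean, for each library. Points are libraries, short lines are condition means, and open points mark the 4 libraries in which under 50% of miR-548o-3p reads were multi-mapping. The open points of miR-548o-3p and miR-548ay-5p lie below all filled points of those members.

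Multi-mapping reads, which align to more than 1 place in the genome and were kept by the authors, were frequent. They were 58.4% of family reads and 37.0% of all miRNA reads. Of 27 members with at least 100 reads, 15 (55.6%) had more than 90% multi-mapping reads and 10 had under 10%. Among the other 509 miRNAs with as many reads, 14.1% had more than 90%. miR-548x-3p, miR-548y, miR-548a-3p and miR-548ay-5p were at 99.9%, 99.4%, 100% and 100%, while miR-548k, miR-548ay-3p, miR-548ar-3p and miR-548e-3p were at 0.145%, 0%, 0.0547% and 0%.

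The multi-mapping share also set 4 libraries apart. For miR-548o-3p it was 17.1% in *Control* 2, 11.9% in *Control* 3, 18.1% in *DMSO* 1 and 16.6% in *DMSO* 2, and 97.7% to 100% in the other 8 libraries. These 4 libraries included no *PlaB* library. In them the level of miR-548o-3p was 65.1 to 90.7 CPM, below the 150.5 to 201.7 CPM of the others. miR-548ay-5p was at 0 to 1.83 CPM against 33.6 to 59.6 CPM, and miR-548w at 0 to 4.27 CPM against 19.2 to 49.6 CPM. Of the 536 miRNAs with at least 100 reads, 9 (1.68%) were lower in all 4 than in any other library, including these 3 members. The part of this difference in the comparisons was not tested. The family sums, the pooled rates, the ratios to the *Control* limit and the calls are also given without these libraries. This leaves 2 *Control*, 2 *DMSO* and 4 *PlaB* libraries.

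**Figure D2:**
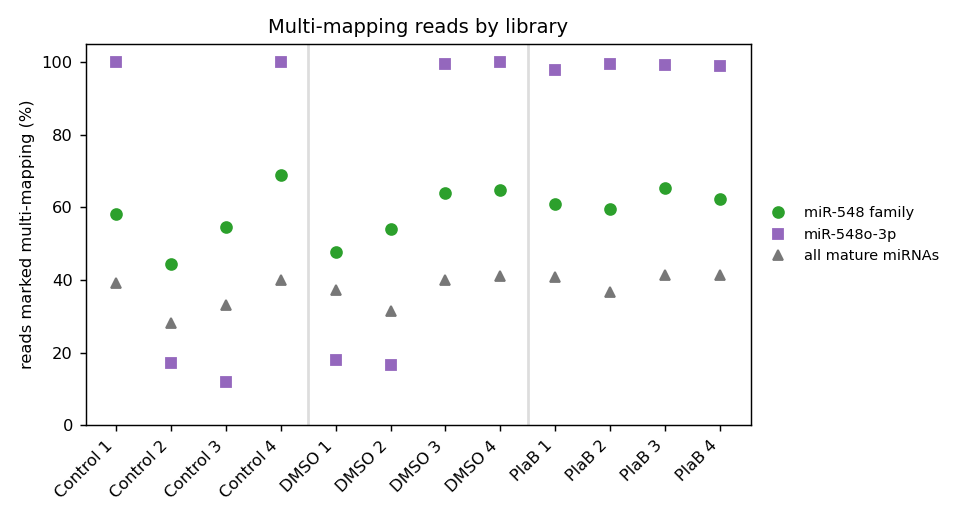
Share of reads marked multi-mapping (%) in each library for the pooled family, for miR-548o-3p and for all mature miRNAs. miR-548o-3p is at 11.9% to 18.1% in *Control* 2, *Control* 3, *DMSO* 1 and *DMSO* 2 and at 97.7% to 100% elsewhere.

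The first question was whether 4SU or Pladienolide B was accompanied by a change in the amount of any member. miR-548k was at 147.5, 147, 132 and 147 CPM in *Control*, 153, 132, 150.7 and 181 CPM in *DMSO*, and 173, 205.6, 166 and 178 CPM in *PlaB*. Its levels in *PlaB* overlapped those in *DMSO*. miR-548x-3p was at 149.9, 254, 332 and 231 CPM in *Control*, 248, 349, 336 and 272 CPM in *DMSO*, and 205.6, 323, 304 and 255 CPM in *PlaB*. The ranges of its 3 conditions overlapped, although between libraries of the same number its *DMSO* level exceeded both its *Control* level and its *PlaB* level in 4 of 4 cases. With the replicate number as a block, its log2 fold change of *DMSO* over *Control* was 0.37 (edgeR adjusted p = 0.0447, against 0.529 without the block).

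Read counts of 27 members passed the filter on low counts and were tested in one fit with all miRNAs (edgeR quasi-likelihood test, Benjamini-Hochberg adjustment over 533 miRNAs). For *DMSO* against *Control*, 0 members passed an adjusted p of 0.05, where 6% of all tested miRNAs did. At an unadjusted p under 0.05 there were 88 of the 533 miRNAs, 2 of them members (miR-548ae-3p and miR-548aq-5p). DESeq2 also called 0 members, where it called 11 of 537 miRNAs higher and 37 lower. When the 4 libraries that stand apart were left out, 0 of 30 tested members were called in this comparison or in *PlaB* against *DMSO*. Of 565 miRNAs in that subset, 1 was called higher and 12 lower in the first comparison, and 1 higher in the second. With all 12 libraries, the median log2 fold change of *DMSO* over *Control* was 0.31 for the 27 tested members and 0.04 for all miRNAs tested. For *PlaB* against *DMSO*, 0 members were called by either tool, where 0.375% of all miRNAs were called by edgeR. DESeq2 called 3 of 537 miRNAs higher and 3 lower. An unadjusted p under 0.05 was reached by 30 of the 533 miRNAs, 2 of them members (miR-548a-3p and miR-548a-5p). For miR-548k the log2 fold change of *PlaB* over *DMSO* was 0.22 with a 95% interval of -0.10 to 0.55, and for miR-548x-3p it was -0.16 with an interval of -0.64 to 0.33. The intervals of these 2 members excluded a 2-fold change in either direction, whereas those of miR-548o-3p (-0.11 to 1.24), miR-548ay-5p (-1.24 to 3.16) and miR-548h-5p (-0.98 to 1.93) did not.

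T>C conversions were then compared as a measure of newly made molecules. The family had 242 conversions in 206187 covered T positions over the 12 libraries, on 17 members. The pooled rate in the *Control* libraries was 0.0589%, 0.0581%, 0% and 0.00514%. The 0 in *Control* 3 was from 11943 covered positions and allows a rate of up to 0.0251%. In *DMSO* the rate was 0.205%, 0.112%, 0.314% and 0.0596%, and in *PlaB* it was 0.137%, 0.081%, 0.131% and 0.135%. Over all members, every 4SU library was above every *Control* library, *DMSO* 4 by a narrow margin, and the *DMSO* and *PlaB* ranges overlapped. The means were 0.0305 ± 0.0323%, 0.173 ± 0.112% and 0.121 ± 0.0267% (SD, n = 4). The means were 0.032% in *Control* and 0.187% in *DMSO* (n = 2 each) without the 4 libraries that stand apart. Over members under 10% multi-mapping the separation was lost, with *Control* 1 at 0.138% and *DMSO* 4 at 0.117%.

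Pooled over libraries, the *DMSO* rate of the family was 0.175% (95% Wilson interval 0.15% to 0.205%) and the *PlaB* rate was 0.118% (0.0939% to 0.148%). Over all miRNAs the rates were 0.269% in *DMSO*, 0.152% in *PlaB* and 0.0269% in *Control*. Intervals and limits here cover counting error only.

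The pooled *DMSO* rate was dominated by miR-548a-3p, all of whose reads were multi-mapping. It had 27, 11, 38 and 0 conversions in the *DMSO* libraries, 0, 6, 0 and 0 in *Control*, and 0, 0, 0 and 3 in *PlaB*. In *DMSO* 3, 38 of its 129 reads carried a conversion, and in *DMSO* 4, 0 of 32 did. Without miR-548a-3p the *DMSO* rates of the family were 0.102%, 0.0708%, 0.130% and 0.0603%, and the *PlaB* rates were 0.139%, 0.0824%, 0.133% and 0.119%. The *Control* rates were 0.0603%, 0.0200%, 0% and 0.00526%, so *Control* 1 and *DMSO* 4 were level at this rounding. The pooled rates were then 0.0914% (0.0732% to 0.114%) in *DMSO*, 0.115% (0.0911% to 0.145%) in *PlaB* and 0.018% in *Control*. Leaving out the 4 libraries as well, the *DMSO* rate was 0.0979% and the *Control* rate 0.0242%. With that single member removed, the *DMSO* rate of the family was no longer above its *PlaB* rate.

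**Figure D3:**
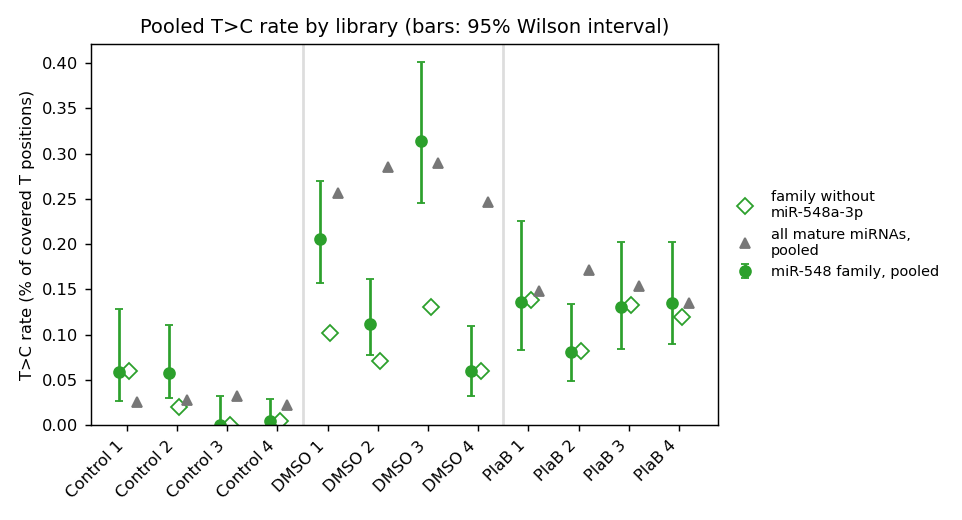
T>C rate (% of covered T positions) in each library for the pooled family (filled circles, with 95% Wilson intervals), the family without miR-548a-3p (open diamonds) and all mature miRNAs (triangles). In *DMSO* 1 and *DMSO* 3 the family falls from 0.205% to 0.102% and from 0.314% to 0.130% without miR-548a-3p.

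Among the abundant members, conversions differed widely. miR-548ay-3p, whose reads all mapped uniquely, had 0 conversions in every *Control* library, 4, 5, 13 and 2 in *DMSO*, and 6, 7, 9 and 9 in *PlaB*. Its rates were 0.279%, 0.331%, 1.22% and 0.357% in *DMSO* and 1.5%, 0.556%, 1.22% and 0.973% in *PlaB*. All 8 libraries with 4SU had conversions and none of the 4 without did. The 0 of 2500 covered positions in *Control* allows a rate of up to 0.12%. The measured rate was 4.38 times that limit in *DMSO* and 7.77 times in *PlaB*. These ratios leave out the counting error of the rates with 4SU, whose Wilson intervals began at 0.353% in *DMSO* and 0.658% in *PlaB*. Single libraries moved these ratios. Without *DMSO* 3 the *DMSO* rate was 0.314% and its ratio 2.62, and without *Control* 2 the ratios were 2.71 and 4.82. Without the 4 libraries that stand apart, the *DMSO* rate was 0.923% (15 of 1625 positions) against a *Control* limit of 0.313%. The ratios were then 2.95 in *DMSO* and 2.98 in *PlaB*.

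miR-548k had 0 conversions in *Control*, 7, 5, 1 and 0 in *DMSO*, and 1, 5, 2 and 1 in *PlaB*. Its pooled rate was 0.0968% in *DMSO* and 0.0885% in *PlaB*, which are 3.04 and 2.78 times the *Control* limit of 0.0318%. Of its 13 conversions in *DMSO*, 12 were in *DMSO* 1 and *DMSO* 2, which are among the 4 libraries that stand apart. Without those 4, its *DMSO* rate was 0.0189% (1 of 5284 positions), below the *Control* limit of 0.0634%, and its *PlaB* rate was 1.4 times that limit. Without *PlaB* 2, its *PlaB* rate was 1.82 times the limit over all *Control* libraries. miR-548o-3p had 0 conversions in *Control*, 0, 1, 2 and 2 in *DMSO*, and 7, 2, 2 and 3 in *PlaB*, where its rate was 3.62 times the *Control* limit of 0.0442%. That ratio was 2.37 without the 4 libraries, 2.4 without *PlaB* 1 and 2.19 without *Control* 4.

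miR-548x-3p, the most abundant member, had 0 conversions in 23167 covered T positions in *DMSO* and 0 in 13422 in *PlaB*. These allow rates of up to 0.0129% and 0.0224%, below the Wilson intervals of miR-548ay-3p in the same conditions (0.353% to 0.78% and 0.658% to 1.32%). Its single conversion was in *Control* 4. A converted read of miR-548x-3p can match one of its 15 near-copies exactly and not be counted as converted. The limits thus hold for reads counted as miR-548x-3p and do not limit its labelling. How many reads this concerns was not tested. miR-548h-5p and miR-548ay-5p also had 0 conversions in all 12 libraries, in 9816 and 6138 covered positions.

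The remaining members with at least 5 conversions were uneven between libraries. miR-548ar-3p had 6 conversions in *Control* 1 and 0 in the other *Control* libraries, 0, 0, 5 and 0 in *DMSO*, and 0, 1, 0 and 4 in *PlaB*. miR-548e-3p had 7 in *DMSO* 1 and 2 in *PlaB* 3 and none elsewhere. miR-548s had 4 in *DMSO* 1, 4 in *PlaB* 3 and 3 in *PlaB* 4. miR-548a-5p, the other arm of the miR-548a name, had 5 in *DMSO* 2 and 2 in *DMSO* 4, and miR-548l had 2 in *Control* 2 and 3 in *DMSO* 4. None of these 5 members had conversions in all libraries of a condition.

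**Figure D4:**
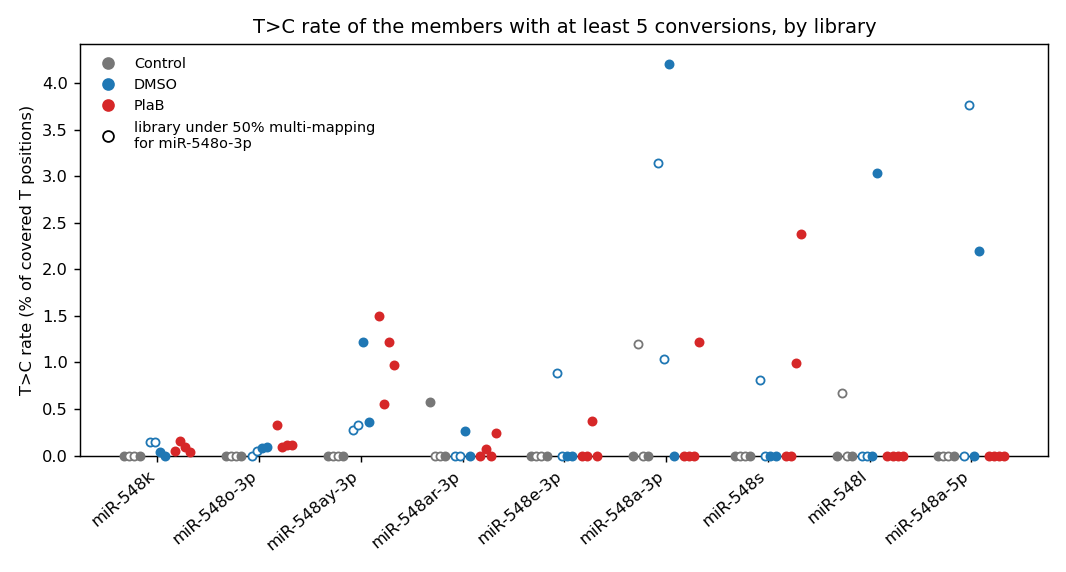
T>C rate (% of covered T positions) of the 9 members with at least 5 conversions, one point per library; open points mark the 4 libraries set apart by multi-mapping. miR-548ay-3p is above 0 in all 8 libraries with 4SU and at 0 in all 4 *Control* libraries.

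Conversions were tested against covered T positions over 239 miRNAs with at least 10 conversions (edgeR quasi-likelihood test, Benjamini-Hochberg adjustment). The filter let 6 members through, and 75 had too few conversions. It summed conversions over all conditions. As miR-548ay-3p, miR-548k, miR-548o-3p and miR-548s had 0 in *Control*, they passed it only through the libraries with 4SU. Of the 85 conversions of miR-548a-3p, 76 were in *DMSO*. The calls over *Control*, and the shares of all tested miRNAs called higher, carry this selection and are not independent evidence of labelling. For *DMSO* against *Control*, 3 members rose, where 80.8% of all tested miRNAs were called higher. They were miR-548ay-3p (edgeR adjusted p = 0.00288, higher in 4 of 4 libraries), miR-548a-3p (log2 fold change 2.60 ± 1.00 SE, edgeR adjusted p = 0.0161) and miR-548k (edgeR adjusted p = 0.0239). Without the 4 libraries set apart, miR-548ay-3p and miR-548a-3p remained past the threshold (edgeR adjusted p = 0.0341 and 0.0123) and miR-548k did not (edgeR adjusted p = 0.463). In that subset 125 of the 239 miRNAs were called higher. Over all alternatives the edgeR adjusted p was 0.00245 to 0.0341 for miR-548ay-3p, 0.00135 to 0.108 for miR-548a-3p and 0.0167 to 0.463 for miR-548k. The call of miR-548a-3p was lost without *Control* 3, *Control* 4 or *DMSO* 3 and without both *DMSO* 1 and *DMSO* 2 (edgeR adjusted p = 0.0538). That of miR-548k was lost without *DMSO* 1, *DMSO* 2 or both and with the replicate number as a block (edgeR adjusted p = 0.0938 with the block).

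For *PlaB* against *Control*, 3 members rose, where 53.1% of all tested miRNAs were called higher: miR-548ay-3p (edgeR adjusted p = 0.000623), miR-548o-3p (edgeR adjusted p = 0.0214) and miR-548k (edgeR adjusted p = 0.0375). Without the 4 libraries set apart only miR-548ay-3p was past the threshold (edgeR adjusted p = 0.0246), and miR-548o-3p and miR-548k were at edgeR adjusted p = 0.0988 and 0.225. With the replicate block their edgeR adjusted p was 0.0746 and 0.111. Without the 4 libraries and with the block, 85 and 99 of the 239 tested miRNAs were called higher. The call of miR-548o-3p was also lost without *Control* 1, *Control* 4 or *PlaB* 1, and that of miR-548k was lost without any 1 of the *Control* libraries, *DMSO* 2, *PlaB* 2 or *PlaB* 3, without both *DMSO* 1 and *DMSO* 2 (edgeR adjusted p = 0.066) and with a filter of at least 3 conversions (edgeR adjusted p = 0.0549), and was past the threshold in 7 of 18 alternatives. Over all alternatives the edgeR adjusted p was 0.000462 to 0.0246 for miR-548ay-3p, 0.0194 to 0.0988 for miR-548o-3p and 0.0353 to 0.225 for miR-548k. Both comparisons share the *Control* libraries.

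The comparison of *PlaB* with *DMSO* asks whether labelling fell under the splicing inhibitor. Of all tested miRNAs 36.8% were called lower, and the median log2 fold change over all tested was -1.22. Without the 4 libraries set apart and with the replicate block, 56 and 67 of the 239 were called lower. Among the members 1 fell, miR-548a-3p, with a log2 fold change of -2.77 ± 1.11 (SE, edgeR adjusted p = 0.0407). That call was lost without *DMSO* 1, without *DMSO* 3, without *PlaB* 1, 2 or 3, without both *DMSO* 1 and *DMSO* 2, without the 4 libraries set apart and with the replicate number as a block (edgeR adjusted p = 0.141 with the block, and 0.00383 to 0.191 over all alternatives). For miR-548ay-3p the log2 fold change was 0.90 ± 0.90 (SE), with a 95% interval of -0.88 to 2.68. In this main fit the interval lies above the median of all tested miRNAs. Over all alternatives its log2 fold change was 0.33 to 1.66 (edgeR adjusted p = 0.226 to 0.904). Whether the interval stays above the median in them was not tested. For miR-548o-3p the log2 fold change was 1.37 with an interval of -1.17 to 3.9. For miR-548k it was -0.04 with an interval of -2.43 to 2.35, which includes both no change and the median. A fall of the median size was thus not detectable, nor was it bounded, for miR-548k at this depth.

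The reference miRNAs of the study gave the scale of these rates. miR-122-5p, the liver miRNA, was converted at 0.313% of covered T positions in *DMSO* and 0.0796% in *PlaB*, and miR-21-5p at 0.342% and 0.263%. The rates of miR-548ay-3p, 0.525% and 0.932%, were above both. Its *DMSO* rate was 0.923% without the 4 libraries that stand apart, and 0.314% without *DMSO* 3, below that of miR-21-5p over all *DMSO* libraries. The rates of miR-548k were below miR-21-5p in both conditions, and the upper limits of miR-548x-3p were below all of them. These differences between miRNAs were not tested.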

How the data were processed

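The nf-core SLAMseq workflow (SLAM-DUNK) was run by the authors on GRCh38 with the mature miRNA coordinates of miRBase as features. Bases were clipped at both read ends, SNPs were masked and multi-mapping reads were kept. Each deposited table gives counts per mature miRNA (reads, reads with a T>C conversion, conversions, covered T positions, multi-mapping reads). The deposited CPM values and the deposited conversion rate, a fraction, are the authors' own. Length and T content columns were used as descriptions only.

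All values were recomputed from the 12 tables. Read counts were tested with edgeR 4.0.16 (TMM factors, filterByExpr) and conversions with an offset for the covered T positions (their log), for miRNAs with at least 10 conversions in all and covered positions in every library. Each was one fit of 3 conditions over all miRNAs with a threshold of 0.05, without the replicate number. DESeq2 1.42.0 was an alternative. Pooled family values have no test. Shares and rates have 95% Wilson intervals, and a count of 0 is limited by 3 counts. Exact and near-exact genome sites were counted on hg38. With 200 read counts changed in simulated data, 58.1% of 2-fold and 95.9% of 4-fold changes were recovered among 516 miRNAs. With conversions, 25 miRNAs were changed 2-fold and 25 were changed 4-fold among 236, and 20% and 72% were recovered. The simulation gave all miRNAs the same fixed spread. Recovery for members whose conversions sit in single libraries was not tested.

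Library totals of 1522210 to 3880241 reads set the precision. Members named are the 10 with the highest mean CPM, those with at least 5 conversions and those past a threshold. miR-548ae-3p, miR-548aq-5p, miR-548w, miR-548x-5p and miR-548av-3p were named after their values were seen. Members and lists were chosen with earlier results of these data known. Alternatives were other normalizations, filters, tools and subsets of libraries.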

Additional observations from a re-analysis of the deposited data

Results flagged for a closer look

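In groups of 4 libraries, a library whose gap to its nearest neighbour exceeded Dixon's 95% critical value as a share of the group's range was looked for in the family values, the CPM of the 10 most abundant members and the rates of the 9 members with at least 5 conversions. Of 61 groups, 14 held such a library. Chance flags about 1 in 20 groups of continuous values, but in 9 of the 14 a single library had conversions and the other 3 were at 0, which meets the criterion by construction, so the number has no reading against chance.

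The family-pooled rate was 0.081% in *PlaB* 2, below the 0.131% to 0.137% of the other *PlaB* libraries. miR-548k was at 132 CPM in *Control* 3, below the 147 to 147.5 CPM of the others. miR-548h-5p was at 132 CPM in *Control* 4, above the 12.0 to 19.3 CPM of the others.

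miR-548a-3p had a rate of 1.20% in *Control* 2 and 1.22% in *PlaB* 4, with 0 in the other libraries of each condition. miR-548ar-3p had 0.575% in *Control* 1 and 0.262% in *DMSO* 3, with 0 in the other *Control* and *DMSO* libraries. miR-548e-3p had 0.891% in *DMSO* 1 and 0.375% in *PlaB* 3. miR-548l had 0.673% in *Control* 2 and 3.03% in *DMSO* 4, and miR-548s had 0.816% in *DMSO* 1, each with 0 in the other libraries of that condition. miR-548ay-3p had 1.22% in *DMSO* 3 and 0.279% to 0.357% in the other *DMSO* libraries. miR-548o-3p had 0.326% in *PlaB* 1 and 0.0922% to 0.114% in the other *PlaB* libraries.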

How the results depend on the processing

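For conversions, the alternatives were applied to the number of members called. Without *DMSO* replicates 1 and 2, the number called was 1 for *DMSO* over *Control* and 0 for *PlaB* over *DMSO*. Of the 239 miRNAs tested, 139 were then called higher and 50 lower, respectively. Without the 4 libraries that stand apart in multi-mapping, a subset chosen after seeing the data, *PlaB* against *DMSO* had 0 calls and *PlaB* against *Control* had 1. In that subset 56 of the 239 miRNAs were called lower and 85 higher, respectively. Leaving out 1 library at a time gave 2 to 3, 0 to 1 and 1 to 3 members called for *DMSO* over *Control*, *PlaB* over *DMSO* and *PlaB* over *Control*. The filterByExpr filter on conversions left 0 members to test. For read counts, 0 members were called with each library left out in turn, and testing without the low-count filter called 1, miR-548ae-3p, for *DMSO* against *Control*. Without that filter 13 of 1530 miRNAs were called higher and 30 lower in this comparison.

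The replicate numbers were also used as a block. Same-numbered libraries correlated in their deviations from the condition means at r = -0.021 to 0.653 over 301 miRNAs above 10 CPM. Over 158 above 100 CPM this was 0.208 to 0.83, and all 12 libraries correlated best with their own number. The paper describes independent experiments that each held all conditions. The fit with the block follows that design, and the main fit leaves it out. With the replicate block, 1 member, miR-548x-3p, was called (higher) in reads for *DMSO* against *Control*. Of the 533 miRNAs tested for reads, 21 were called higher and 38 lower. Conversions gave 2 for *DMSO* against *Control*, 0 for *PlaB* against *DMSO* and 1 for *PlaB* against *Control*. Of the 239 miRNAs tested for conversions, 160 were called higher, 67 lower and 99 higher, respectively. Under the block the log2 fold change of *PlaB* over *DMSO* was 0.23 for miR-548k, and those of *PlaB* over *Control* were 0.15 for miR-548a-3p and 0.22 for miR-548ar-3p, each of opposite sign to the value without it.

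Other changes of sign were in values that did not pass the threshold. Without *DMSO* replicates 1 and 2, miR-548ar-3p was at 0.041 (*DMSO* over *Control*) and -0.63 (*PlaB* over *DMSO*), and miR-548k at 1.86 (*PlaB* over *DMSO*). Without the 4 libraries these last were -0.63 and 1.87, and miR-548a-3p was at 3.25 (*PlaB* over *Control*). Leaving out 1 library gave -3.99 to 3.12 (*DMSO* over *Control*), -1.91 to 3.49 (*PlaB* over *Control*) and -0.96 to 3.41 (*PlaB* over *DMSO*) for miR-548ar-3p (past the threshold, lower, only for *DMSO* over *Control* without *DMSO* 3), -3.86 to 3.63 (*PlaB* over *Control*) for miR-548a-3p, and -0.53 to 0.37 (*PlaB* over *DMSO*) for miR-548k. The causes were not tested.

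Pooled values moved with their definition. The mean rate in *Control*, *DMSO* and *PlaB* was 0.221%, 1.21% and 0.876% as reads with a conversion. The unweighted mean of member rates was 0.350% in *DMSO* and 0.198% in *PlaB*. The mean pooled rate in *PlaB* was 0.153% without miR-548x-3p. Over members under 10% multi-mapping it was 0.0449%, 0.187% and 0.232% in *Control*, *DMSO* and *PlaB*, with *DMSO* below *PlaB*, the reverse of the order over all members. Summed CPM over those members was 364, 430.1 and 453. Members with at least 5 reads numbered 28.5, 34.5 and 30.5 on average. The multi-mapping share without miR-548x-3p was 40.5%, 41.5% and 51.1%. Leaving out 1 library kept the pooled rate at 0.0211% to 0.0407%, 0.126% to 0.210% and 0.116% to 0.134%.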

Other observations

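The related hairpins miR-579, miR-570 and miR-603 had condition means of at most 19.4 CPM. That is below miR-548x-3p, miR-548k and miR-548o-3p but not below most members of the family. miR-579-5p had 0 conversions in 578 covered T positions in *Control*, 20 in 558 (3.58%) in *DMSO* and 9 in 394 (2.28%) in *PlaB*. miR-579-3p had 6 conversions in 1619 positions in *DMSO* and 0 in 847 in *PlaB*, and miR-570-3p and miR-570-5p had 0 in all libraries. miR-603 had 1 read in all. Of the older transposon-derived miRNAs, miR-28-5p, miR-28-3p, miR-151a-3p, miR-151a-5p and miR-340-5p were at 967, 726, 4632, 5964 and 458 CPM in *DMSO*, and miR-340-3p was at 75.3 CPM. In that order their rates in *DMSO* were 0.113%, 0.0982%, 0.181%, 0.044%, 0.0338% and 0.0271%, and in *PlaB* 0.0385%, 0.0618%, 0.0816%, 0.0152%, 0.0488% and 0.0205%. The rate was thus lower in *PlaB* for 5 of the 6 and higher for miR-340-5p. These values were not tested against the family.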
